A study of Homo sapiens with 18 samples.

Results

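Neural epithelial cells grown from H9 human embryonic stem cells were compared at day 17 of differentiation with and without basic fibroblast growth factor. The factor, abbreviated bFGF in the labels and FGF2 in 1 of them, is a secreted protein that binds FGF receptors and starts the RAS and ERK kinase cascade. The comparison held 6 of the 18 arrays of the series. In 3 arrays, day 17 definitive neural epithelial cells had received 20 ng/ml bFGF from day 6 to day 17. In the other 3 arrays, cells of the same day had received none. Arrays were taken by their labels, and the pool number in each label (1, 2 or 3) paired each bFGF array with an untreated one. H9 is an established line from a single embryo, and each array measured a pool of RNA. The labels do not say that the pools came from separate cultures, so p-values here measure only the spread between these arrays. The series also holds day 10 primitive neural epithelial cells with and without bFGF, day 6 embryoid bodies and undifferentiated stem cells, with 3 arrays each.

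ERK signalling switches on a set of genes in many tissues. Some of these encode transcription factors of the ETS family, such as ETV4 and ETV5, and others encode inhibitors that act back on the cascade, such as the phosphatase DUSP6 and the Sprouty proteins. In the embryo, FGF proteins made at the junction of midbrain and hindbrain maintain the gene EN2 in nearby neural tissue, and FGF signals oppose retinoic acid in several settings along the body axis. Neural epithelium at the rosette stage can give rise to forebrain, eye, midbrain, hindbrain and spinal cord cells, depending on such signals.

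Signals are fluorescence values in arbitrary units that the authors had scaled to the same trimmed mean, between 150.016 and 150.026, on each array. The pool 2 arrays of the 4 neural epithelial groups had a median signal of 48.7 to 50.8, against 25.2 to 32.7 on the other 14 arrays. Both day 17 groups hold 1 such array. The summed signal of 6 neuroepithelial markers (SOX1, SOX2, PAX6, NES, CDH2 and FABP7) was 21569 to 25232 with bFGF and 21378 to 25375 without, against 7023 to 8686 in stem cells. By this sum the label of neural epithelium matched its markers in both groups. SOX2 did not set them apart from stem cells, with means of 5863 with bFGF, 6591 without and 6453 in stem cells. Each of the other markers had a higher mean in both groups than in stem cells. None of these 6 genes passed the test between the day 17 groups. The neuronal markers DCX, STMN2 and ELAVL4 summed to 2810 to 2959 with bFGF and 3859 to 6045 without, and none of the 3 passed the test. In such bulk RNA, fewer cells of a type and less RNA per cell cannot be told apart.

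With bFGF, 52 genes were higher and 57 lower at day 17 among 19775 genes tested by limma at an adjusted p under 0.05. These 109 genes are 0.551% of the genes tested, with 0.263% in the higher and 0.288% in the lower direction, and the median log2 change over all genes was -0.01. At an unadjusted p under 0.05, 2088 genes (10.6%) differed. Of the 109 genes, 105 had day 17 groups that did not overlap (50 higher, 55 lower), against 9.02% of all genes. The difference had the same sign in all 3 pools for each of the 109, against 33.4% of all genes. The lack of overlap and the shared sign largely follow from the selection, because the test used these same values. They add no support to the calls. The number of calls depended on how the spread was estimated. Without the pool term limma called 26 genes (18 higher, 8 lower), all of them among the 109, and with the 6 day 17 arrays alone or without pool 2 it called 0, while 1875 and 1528 genes had an unadjusted p under 0.05. All 109 changes kept their direction in each of the 17 alternatives that tested the gene. With the same sign in all 3 pools, no other direction was possible where only the pool term, added constant, variance prior or gene filter changed. The same holds for the 6 arrays alone and without pool 2, so the kept direction adds no support there. In the 15 alternatives other than the 2 that called 0, 12 genes stayed past the test. They were DUSP6, SPRY1, IL17RD, LGI1, DKK2, LOX, TFPI and RHOU among the higher genes, and CRYAB, SPOCK1, BHMT and GABRP among the lower ones. Leaving out 1 of the 6 arrays at a time left 31 to 60 calls, and 24 of the 109 genes passed in all 6 such fits. With 1 rather than 16 added to the signals before the log, 30 of the 109 genes passed. SPRY4, FGF18, EN2 and ALDH1A1 were among those that did not.

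The inhibitors that act back on FGF and ERK signalling had the highest share of calls of the 37 gene lists. Of 13 measured members, 5 rose (38.5%, against 0.263% of all genes), none fell, and the median log2 change was 0.47. DUSP6, which removes phosphate from ERK, had signals of 4082, 2397 and 3642 in the bFGF arrays of pools 1 to 3, against 413, 386 and 581 in the untreated arrays. The lowest bFGF array was far above the highest untreated one. The change was 2.82 ± 0.21 on the log2 scale (SE), or 7.05-fold, with a limma adjusted p of 0.0012. Each change is the mean over the 3 day 17 pairs, and its SE comes from the fit to the 12 neural epithelial arrays, day 10 included. Fold changes here are on the log2(signal + 16) scale, which understates the change of low signals.

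SPRY1, a Sprouty protein that holds back signalling from receptor tyrosine kinases, had signals of 1522, 1477 and 1922 with bFGF, against 364, 221 and 321 without. Its log2 change was 2.40 ± 0.17 (adjusted p = 0.0012), or 5.28-fold. SPRY2 signals were 2506, 1620 and 2271 with bFGF and 641, 519 and 783 without. IL17RD, a membrane protein also known as SEF that holds back ERK signalling, had 4292, 3742 and 3071 with bFGF and 1487, 1223 and 1024 without. In all 3 genes every bFGF array was above every untreated one. The log2 change was 1.69 ± 0.16 for SPRY2 (adjusted p = 0.004) and 1.56 ± 0.16 for IL17RD (adjusted p = 0.0054). SPRY4 was at 514, 278 and 216 with bFGF, against 71.4, 49.4 and 71.0 without, a log2 change of 2.06 ± 0.28 (adjusted p = 0.0138). The members not past the test included DUSP4 (0.49), SPRED1 (0.47), SPRED2 (0.26) and DUSP5 (0.15), all on the log2 scale.

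DUSP6, SPRY1, SPRY2 and IL17RD stayed past the test without any single array of the day 17 groups. SPRY2 had an adjusted p of 0.0998 without the pool term, where SPRY4 had 0.0631. SPRY4 lost its call when any of the arrays other than bFGF pool 3 was left out (adjusted p up to 0.078). All 3 probe sets of DUSP6, both of SPRY1 and both of IL17RD moved the same way. SPRY4-IT1, a noncoding transcript at the SPRY4 locus, was also called, at a log2 change of 2.36. Its value is uncertain because it lies within SPRY4, and it passed in 1 of the 6 fits with an array left out.

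**Figure D1:**
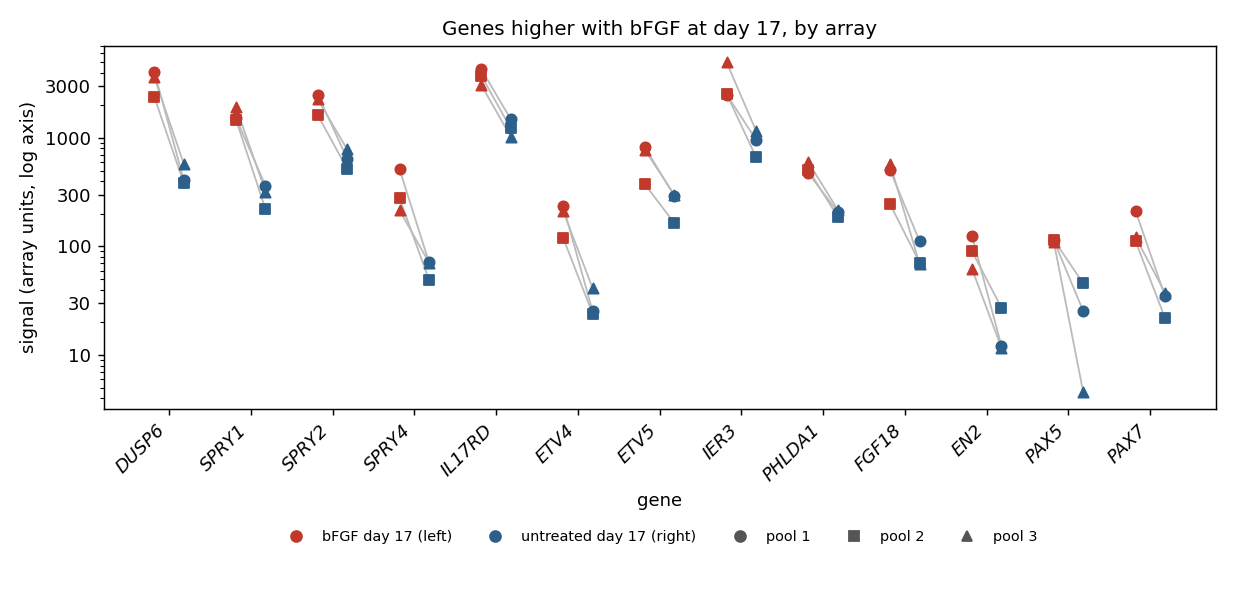
Signals (array units, log axis) of 13 genes higher with bFGF, in the 3 bFGF arrays (red, left) and the 3 untreated day 17 arrays (blue, right), with lines joining arrays of one pool. DUSP6 lies between 2397 and 4082 with bFGF and between 386 and 581 without, and in each of the 13 genes shown all bFGF arrays lie above all untreated ones.

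The 250 bases before the start of DUSP6, SPRY1 and SPRY2 are shown because these are the feedback genes with the smallest adjusted p. They come from the RefSeq table for GRCh38.p14, are written 5′ to 3′ along the gene, and carry in capitals any match to the core letters of ETS sites, CCGGAA, on either strand.
DUSP6, chr12:89352502-89352751, minus strand: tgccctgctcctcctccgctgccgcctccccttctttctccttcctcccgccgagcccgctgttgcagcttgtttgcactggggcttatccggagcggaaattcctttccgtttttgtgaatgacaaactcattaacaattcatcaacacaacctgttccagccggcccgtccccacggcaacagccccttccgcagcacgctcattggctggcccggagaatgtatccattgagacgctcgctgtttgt
SPRY1, chr4:123396545-123396794, plus strand: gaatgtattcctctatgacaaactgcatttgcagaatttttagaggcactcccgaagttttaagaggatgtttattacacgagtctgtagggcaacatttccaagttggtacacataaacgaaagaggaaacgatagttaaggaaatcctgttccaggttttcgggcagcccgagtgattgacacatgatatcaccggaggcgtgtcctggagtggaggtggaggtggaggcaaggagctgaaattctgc
SPRY2, chr13:80341127-80341376, minus strand: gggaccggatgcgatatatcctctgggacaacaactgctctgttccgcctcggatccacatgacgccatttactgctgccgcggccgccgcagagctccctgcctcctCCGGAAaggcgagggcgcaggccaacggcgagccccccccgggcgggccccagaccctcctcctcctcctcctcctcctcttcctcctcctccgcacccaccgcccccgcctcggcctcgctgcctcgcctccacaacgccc
Only SPRY2 of these 3 windows held the letters, 142 bases before the start. Of 9 genes called in the feedback and transcription factor lists, 6 had an entry, and 2 of them (SPRY2 and PHLDA1) held CCGGAA on 1 strand or the other, against 19.6% of the windows of all 15384 tested genes with an entry. Among the 41 higher genes with an entry, 5 held it (12.2%), and among 42 lower genes, 3 did (7.14%). The longer letters CCGGAAGT, which include the core, stood in none of the 6 windows and in 5.13% of all windows. Neither TGACGTCA, the site known as CRE (2.38% of all windows), nor TGACTCA, the site known as AP-1 (3.18%), was found in the 6. A match says only that the letters occur, and the lack of one only that they do not occur in this window.

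Of 18 measured transcription factors and other early targets of ERK, 4 rose (22.2%, against 0.263% of all genes) and none fell. The median log2 change of the list was 0.18. ETV4, an ETS factor, had signals of 237, 120 and 212 with bFGF and 25.4, 24.1 and 41.5 without. ETV5, its close relative, had 822, 374 and 776 with bFGF and 292, 164 and 300.1 without. Every bFGF array exceeded every untreated one in both genes, although bFGF pool 2 was the lowest of its group in each. The log2 changes were 2.12 ± 0.25 for ETV4 (adjusted p = 0.00696) and 1.29 ± 0.18 for ETV5 (adjusted p = 0.0135). IER3, a stress and growth factor response gene, rose by 1.79 (adjusted p = 0.00815), with 2511, 2536 and 4965 in bFGF arrays against 962, 665 and 1161 in untreated ones. PHLDA1, another gene induced by growth factors, rose by 1.29 (adjusted p = 0.00987). Of the members not past the test, ELK3 had a log2 difference of 0.81 (adjusted p = 0.243), ETV1 one of 0.58, MYC one of 0.24, JUN one of -0.12, FOS one of -0.48 and EGR1 one of -0.87 (adjusted p = 0.56). Without the pool term none of the 4 called genes passed (adjusted p from 0.0588 for PHLDA1 to 0.791 for ETV5). Without bFGF pool 1 the adjusted p of ETV4 was 0.05005, without bFGF pool 2 that of IER3 was 0.0547, and ETV5 and PHLDA1 each lost their call in at least 4 of the 6 fits with an array left out.

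Of the FGF ligands themselves, 1 of 22 measured rose (4.55%, against 0.263% of all genes). FGF18 had signals of 502, 244 and 575 with bFGF, against 112, 70.9 and 68.5 without, a log2 change of 2.14 ± 0.30 (adjusted p = 0.0154). Its lowest bFGF array was more than the highest untreated array, and 5 of its 6 probe sets moved this way. It lost its call without bFGF pool 1 or pool 3 or without untreated pool 2 or pool 3, at adjusted p up to 0.0919. FGF17 (106, 34.6 and 250.3 with bFGF, against 53.9, 38.2 and 21.2 without) overlapped between groups and did not pass, and FGF8 (0.59) and FGF19 (1.13 on the log2 scale) did not pass either. Among 16 receptors and coreceptors limma called 0, and 5 had an unadjusted p under 0.05 (10.6% of all genes did). FGFR3 gave the largest difference of these, with 206, 160.0 and 195 in bFGF arrays and 464, 292 and 691 in untreated arrays, a log2 difference of -1.22 ± 0.23 (adjusted p = 0.0605). FGFR2 stood at -1.03 (adjusted p = 0.136) and FGFR1 at -0.10.

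Among genes that mark positions along the neural axis, 2 of 17 midbrain and hindbrain genes rose (11.8%, against 0.263% of all genes). The list median was 0.42. EN2, a homeobox gene of the midbrain and anterior hindbrain, had signals of 126, 90.5 and 62.2 with bFGF, against 12.2, 27.3 and 11.7 without. All 3 bFGF arrays were above the untreated ones, which were low on the array. The log2 change was 1.71 ± 0.22 (adjusted p = 0.00966), or 3.27-fold. PAX5, a paired-box gene of the same boundary region, was at 115, 115 and 111 with bFGF and at 25.4, 45.8 and 4.56 without, a log2 change of 1.79 ± 0.30 (adjusted p = 0.0387). GBX2, the homeobox gene of the anterior hindbrain, had a log2 difference of 1.33 (adjusted p = 0.12) and CNPY1, which acts in FGF signalling at the boundary in zebrafish, one of 1.11 (adjusted p = 0.0939). Both had groups that did not overlap. EN1 (0.20), PAX2 (-0.66), WNT1 (-0.27) and OTX2 (-0.04) did not pass. EN2 lost its call without untreated pool 1 (adjusted p = 0.0614) or untreated pool 3 (adjusted p = 0.0525), and with 1 added before the log. Over the alternatives its log2 change ran from 0.94 to 2.42. PAX5 lost its call without any one of the 6 arrays (adjusted p up to 0.173) and without the pool term (0.15). The other PAX5 probe set gave a log2 difference of -0.02.

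Genes of the dorsal neural tube also had 2 of 16 members called (12.5%, against 0.551% of all genes). Both were higher, and the list median was 0.56. PAX7, a paired-box factor of dorsal neural tube and midbrain, had 214, 112 and 122 with bFGF and 34.8, 21.98 and 37.6 without, a log2 change of 1.77 (adjusted p = 0.0185). ZIC2, a zinc finger factor of dorsal neural tissue, had 3070.0, 1980.4 and 3009 with bFGF and 1764, 996 and 1831 without, a log2 change of 0.83 (adjusted p = 0.039). In ZIC2 the gap between the groups was small, and without the pool term its adjusted p was 0.907. Neither PAX7 nor ZIC2 kept its call in any fit with an array left out (adjusted p up to 0.0943 and 0.17), and the other PAX7 probe set gave -0.25. The posterior HOX and CDX genes, which mark hindbrain and spinal cord, had 0 of 24 members past limma's test. At an unadjusted p under 0.05, 2 of the 24 differed, against 10.6% of all genes. Their log2 differences ran from -0.83 to 0.45. Among 18 forebrain genes 1 was called (5.56%, against 0.551% of all genes), with 9 above 0 and 9 below. It was DMRTA1, which rose by 1.37 (adjusted p = 0.00696) at low signals of 33.9 to 46.6 with bFGF, against 2.86 to 9.11 without. SIX6, a factor of eye and ventral forebrain, had a log2 difference of -1.40 (adjusted p = 0.0517). Of 17 neural crest genes 2 rose (11.8%, against 0.263% of all genes) and none fell. In this list 7 genes were above 0 and 10 below, with a median of -0.08. NGFR had the largest difference below 0 (-0.92) and did not pass. The called genes were PRRX1, which rose by 2.18 (adjusted p = 0.00593), and SNAI2, which rose by 1.22 (adjusted p = 0.0206). PRRX1 and DMRTA1 kept their calls without any single array and lost them with 1 added before the log. SNAI2 kept its call in 1 of the 6 fits with an array left out. Without the pool term PRRX1 passed, and DMRTA1 (adjusted p = 0.0755) and SNAI2 (0.0998) did not. The defining crest marker SOX10 did not differ past the test, with means of 30.0 with bFGF and 45.7 without, nor did FOXD3, with means of 18.9 and 19.5. TWIST1, a crest and mesenchyme factor, had 412, 160.0 and 91.1 with bFGF and 39.1, 60.6 and 68.2 without, so its groups did not overlap, and it did not pass (adjusted p = 0.279). The summed signal of SOX10, FOXD3 and TWIST1 ran from 133 to 460.0 with bFGF and from 80.9 to 191 without, and its part in the changes of PRRX1 and SNAI2 was not tested.

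**Figure D2:**
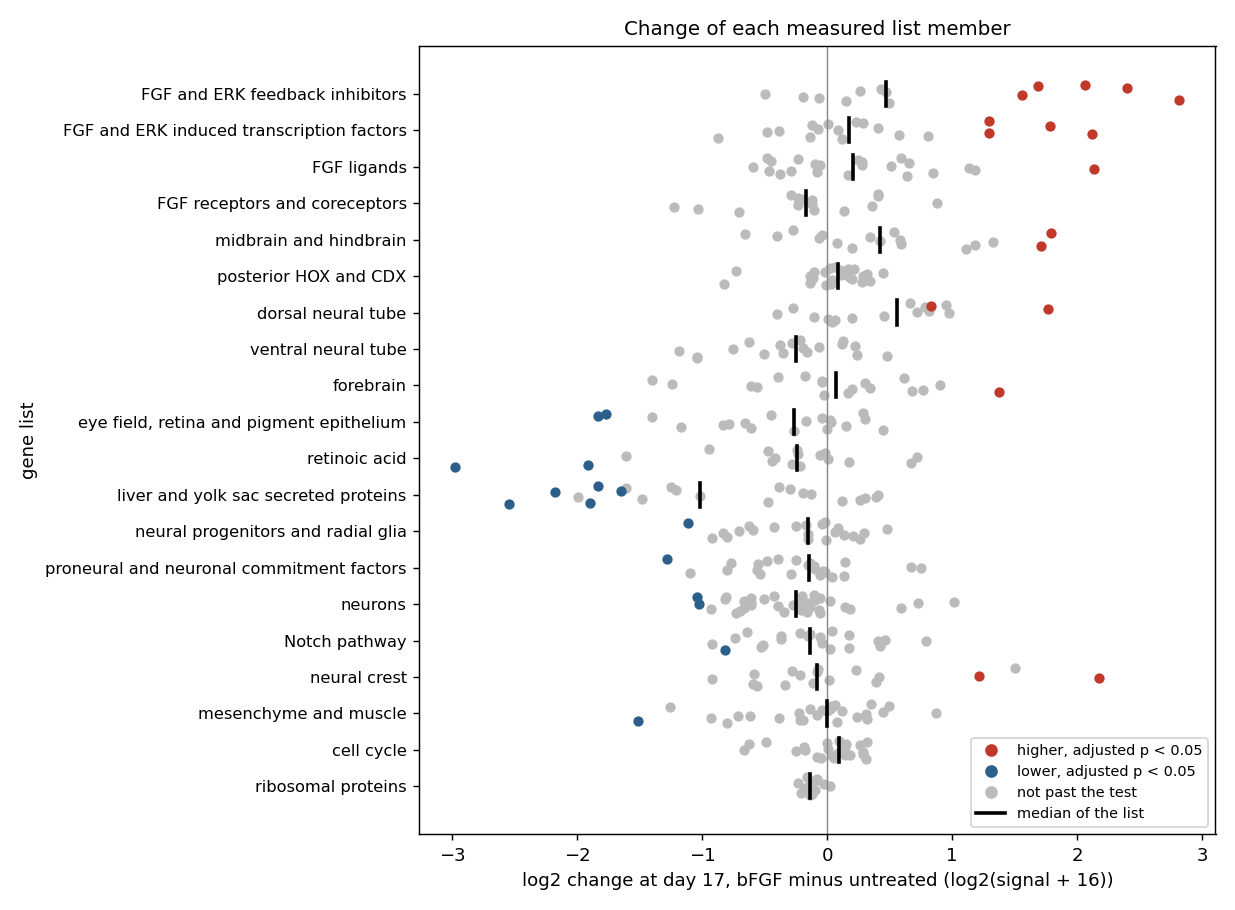
Log2 change at day 17 (bFGF minus untreated) of each measured member of 20 gene lists, with members past the test in colour and a black bar at each list's median. The list of feedback inhibitors has 5 red points from 1.56 to 2.82, and the list of liver and yolk sac proteins has 5 blue points from -2.55 to -1.65 and the lowest median, -1.01.

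Most of the 52 higher genes, 32 of them, were in none of the lists. Of the genes named next, 2 were list members. DKK2 was the 1 called gene of 26 Wnt ligands and antagonists (3.85%, against 0.551% of all genes). HAPLN1 was 1 of 2 called genes of 26 extracellular matrix genes (7.69%), of which 1 rose and 1 fell. ADGRL4, an adhesion G protein-coupled receptor, was at 193, 251 and 129 with bFGF, against 8.81, 6.68 and 19.3 without (log2 change 2.89 ± 0.31, adjusted p = 0.00593). With such low untreated signals its change depended on the constant added before the log: it was 4.01 (adjusted p = 0.0667) with 1 added and 1.73 with 64, while that of DUSP6 was 2.86 and 2.70. LGI1, a secreted protein of neurons, was at 815, 595 and 684 with bFGF, against 166, 78.4 and 197 without (2.20 ± 0.26, adjusted p = 0.00691). LGALS1, a galactose-binding lectin, had 811, 423 and 1666 with bFGF, against 175, 104 and 211 without (2.29 ± 0.22, adjusted p = 0.00405). In these genes the groups did not overlap, and each stayed past the test without any single array. DKK2, a secreted modulator of Wnt signalling, rose by 2.04, LOX, which crosslinks collagen and elastin, by 1.85, and TFPI, an inhibitor of coagulation, by 1.58. HAPLN1, which links hyaluronan to proteoglycans, rose by 2.12 (adjusted p = 0.0205), and TM4SF1, a tetraspanin-like membrane protein, by 2.33 (adjusted p = 0.0421). HAPLN1 kept its call in 1 of the 6 fits with an array left out and TM4SF1 in none (adjusted p up to 0.193), and 1 of 5 TM4SF1 probe sets moved the other way. Without the pool term LGALS1, HAPLN1 and TM4SF1 did not pass (adjusted p from 0.151 to 0.193).

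Enzymes that make retinoic acid were among the lower genes. Of 17 genes of retinoic acid synthesis, transport and response, 2 fell (11.8%, against 0.288% of all genes). ALDH1A1, a dehydrogenase that makes retinoic acid from retinal, had 57.9, 43.4 and 47.9 with bFGF, against 402, 833 and 368 without. The bFGF arrays lay close together, far below every untreated array, with a log2 change of -2.97 ± 0.43 (adjusted p = 0.0184). ALDH1A3, a second enzyme of this step, had 94.5, 47.6 and 82.4 with bFGF, against 278, 368 and 313 without (log2 change -1.92 ± 0.30, adjusted p = 0.0274). The other probe set of ALDH1A3 gave a log2 difference of 0.25. Both enzymes lost their call without any of the 3 untreated arrays or without bFGF pool 3 (adjusted p up to 0.12), and without the pool term (0.135 and 0.0608). ALDH1A2, the third such enzyme, was at -0.22 and the retinoic acid receptor RARB at -0.41, neither past the test. CYP26A1, which degrades retinoic acid, had a log2 difference of 0.67 (adjusted p = 0.0893).

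Of 19 genes of the eye field, retina and pigment epithelium, 2 fell, TYRP1 and TTR (10.5%, against 0.288% of all genes). TTR also counts in the liver and yolk sac list and in the choroid plexus list, and its values are given with them. In this list 13 genes were below 0 (52.2% of all genes were) and 6 above, by at most 0.45, and the median was -0.26. TYRP1, an enzyme of pigment synthesis, had 47.4, 85.8 and 71.0 with bFGF, against 246, 382 and 198 without, a log2 change of -1.77 ± 0.20 (adjusted p = 0.00614). It stayed past the test without any single array, and had an adjusted p of 0.0973 without the pool term. MITF, a factor of pigment cells (-1.17, adjusted p = 0.114), PAX6, a factor of eye and neural tissue (-0.83, adjusted p = 0.0815), and RAX, an eye field factor (-0.65), did not pass. Further lower genes with known roles in the eye were picked after their values were seen. DAPL1, which is expressed in pigment epithelium, had 3.22, 18.1 and 30.0 in bFGF arrays, against 290.0, 602 and 388 in untreated arrays (log2 change -3.77 ± 0.42, adjusted p = 0.00614). CRYAB, a small heat shock protein and lens crystallin, had 35.4, 76.3 and 51.9 with bFGF, against 274, 378 and 556 without (-2.55 ± 0.22, adjusted p = 0.00405). In both genes the groups were far apart and the call held without any single array. The size of the DAPL1 change depended on the constant added before the log, at -4.91 with 1 added (adjusted p = 0.0664) and -2.56 with 64. FOXE3, a lens transcription factor (-1.96), CRYAA, a lens crystallin (-1.58), CRB1, a polarity protein of photoreceptors and retinal glia (-1.94), CYP1B1, a monooxygenase linked to eye development (-2.42), and NR2E1, a nuclear receptor of neural stem cells and retina (-1.98), also fell. FOXE3 and NR2E1 kept their calls in none of the 6 fits with an array left out, CRYAA in 1, CRB1 in 5 (0.05005 without bFGF pool 1) and CYP1B1 in all 6. Of these 5 genes, CRB1 alone passed without the pool term.

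Genes for proteins secreted by liver and yolk sac had 5 of 21 measured members called (23.8%, against 0.551% of all genes). All 5 were lower, and the list median was -1.01. AFP, the fetal serum protein alpha-fetoprotein, had 117, 143 and 122 with bFGF, against 659, 834 and 997 without. The 3 bFGF arrays lay close together, well below every untreated array. The log2 change was -2.55 ± 0.35 (adjusted p = 0.0135), or 5.84-fold lower. The fibrinogen chain genes FGA (-2.17, adjusted p = 0.0394) and FGB (-1.65, adjusted p = 0.0391) fell, as did AHSG, the serum protein fetuin-A (-1.90, adjusted p = 0.042). Of the 3 FGA probe sets, 1 moved the other way (0.65). TTR, the thyroid hormone carrier made by liver, choroid plexus and pigment epithelium, fell by 1.83 (adjusted p = 0.00987). Its signals were 76.7, 37.0 and 190 with bFGF and 335, 176 and 657 without. The TTR groups overlapped, since pool 3 was high and pool 2 low in both, and the difference showed within each pool. Without the pool term its adjusted p was 0.806, and it lost its call without untreated pool 1 or 3 or bFGF pool 1 or 2 (adjusted p up to 0.0656).

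The defining liver genes ALB and APOA1 were low in both groups. ALB averaged 11.9 with bFGF and 23.8 without, and APOA1 averaged 27.3 with bFGF and 17.3 without. APOB, an apolipoprotein of liver and yolk sac, had a log2 difference of -1.99 (adjusted p = 0.0604). AFP kept its call in 1 of the 6 fits with an array left out, without untreated pool 2, and had adjusted p values up to 0.0807 in the others. FGA, FGB and AHSG kept theirs in none, and without the pool term none of the 5 genes passed. The endoderm markers SOX17, FOXA2 and GATA4 summed to 33.7 to 148 with bFGF and 61.9 to 171 without, with the highest array of each group in pool 2. Their part in the fall of AFP was not tested. Of 12 choroid plexus genes 2 fell (16.7%, against 0.288% of all genes), while 7 were above 0 (47.8% of all genes were). Beside TTR, KCNJ13, a potassium channel, fell by 1.44 (adjusted p = 0.0185). KCNJ13 kept its call in 1 of the 6 fits with an array left out and had an adjusted p of 0.326 without the pool term.

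**Figure D3:**
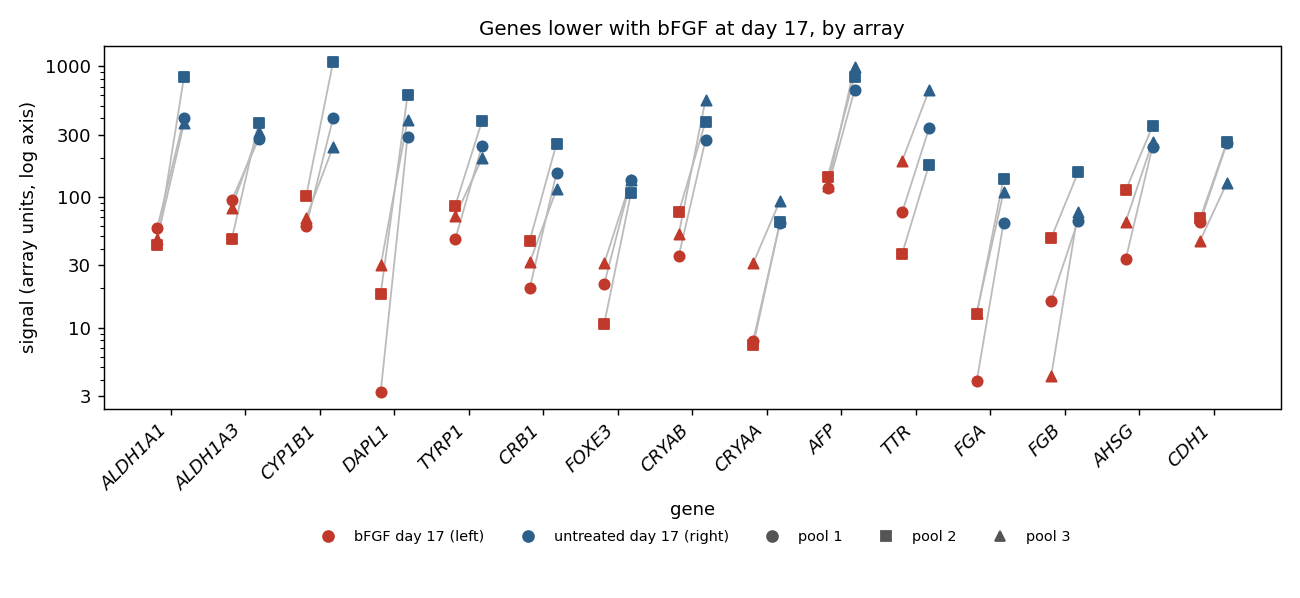
Signals (array units, log axis) of 15 genes lower with bFGF, in the 3 bFGF arrays (red, left) and the 3 untreated day 17 arrays (blue, right), with lines joining arrays of one pool. AFP lies between 117 and 143 with bFGF and between 659 and 997 without, and TTR is the gene shown whose groups overlap.

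Genes of neurons and progenitors had smaller changes. Of 34 neuronal genes 2 fell (5.88%, against 0.288% of all genes), and 28 had a log2 difference below 0 (52.2% of all genes did), with a median of -0.25. At an unadjusted p under 0.05, 15 of the 34 differed, against 10.6% of all genes. STMN4, a tubulin-binding protein of neurons, had 236, 238 and 223 with bFGF, against 482, 523 and 479 without (-1.04, adjusted p = 0.0185). NCAM1, a cell adhesion molecule, had 404, 342 and 277 with bFGF, against 805, 702 and 616 without (-1.03, adjusted p = 0.0185). TUBB3 (-0.11), MAP2 (-0.27) and GAP43 (0.15) did not pass. Of the 6 neuronal genes above 0, NEFM, a neurofilament gene, had the largest log2 difference (1.01) and did not pass either. The lists of 22 progenitor genes (4.55%), 23 Notch genes (4.35%) and 24 neuronal commitment factors (4.17%) had 1 call each, against 0.551% of all genes. These were SOX3, a progenitor factor (-1.11, adjusted p = 0.0185), DLL1, a Notch ligand (-0.82, adjusted p = 0.0499), and ST18, a zinc finger factor of neuronal commitment (-1.28, adjusted p = 0.0225). STMN4, NCAM1, SOX3 and DLL1 kept their calls in no fit with an array left out and ST18 in 1, and none of the 5 passed without the pool term. For ST18, 2 of 4 probe sets moved the other way.

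Outside the nervous system, ACTC1, cardiac actin, fell by 1.51 (adjusted p = 0.0185), with 946, 935 and 1971 in bFGF arrays and 3362, 2102 and 5909.6 in untreated ones. COL1A1, ACTA2 and LUM, the other mesenchymal markers, had log2 differences of -0.22, 0.08 and -0.23. CDH1, the adhesion protein E-cadherin of epithelia, fell by 1.57 (adjusted p = 0.00884), at 64.7, 68.8 and 46.5 with bFGF and 260.0, 266 and 129 without. It lost its call without untreated pool 1, bFGF pool 1 or bFGF pool 2 (adjusted p up to 0.0606), had 0.172 without the pool term, and its other probe set showed a log2 difference of 0.00. KRT5, a keratin of surface ectoderm, averaged 2.81 with bFGF and 18.1 without, both low signals, and did not pass. CDH1 was the 1 called member of 19 surface ectoderm and epithelium genes (5.26%, against 0.288% of all genes that fell). Of these 19, 14 were below 0 and 5 above. GRHL3 had the largest difference above 0 (1.21) and did not pass. TNC, the matrix protein tenascin-C, fell by 1.37 (adjusted p = 0.0135). ACTC1 kept its call in 1 of the 6 fits with an array left out and TNC in 2, and neither passed without the pool term (0.464 and 0.475). Also lower were BHMT, an enzyme of methionine metabolism (-2.88), GABRP, a GABA receptor subunit (-2.89), HSD17B2, a steroid dehydrogenase (-2.78), NPNT, a matrix ligand of integrins (-2.14), and SPOCK1, a matrix proteoglycan (-1.45), each called without any single array. Of these 5, NPNT did not pass without the pool term (0.45), and NPNT and HSD17B2 did not pass with 1 added before the log. The size of the GABRP change depended on the added constant, at -4.96 with 1 added and -1.54 with 64. Over the alternatives the BHMT change ran from -4.21 to -1.66 and that of NPNT from -3.84 to -1.10. That of HSD17B2 ran from -3.37 to -1.92 and that of SPOCK1 from -1.53 to -1.31. In 16 of the 37 lists, with 269 list entries, limma called no member. At an unadjusted p under 0.05, 45 of the 269 entries differed, against 10.6% of all genes, so not all of these lists were flat. The count ran from 0 of 26 cell cycle genes and 0 of 14 ribosomal proteins to 8 of 24 BMP targets and ligands. The lists without a call included cell cycle genes (median 0.09 over 26), ribosomal proteins (-0.14 over 14), pluripotency genes (0.11 over 18), hedgehog genes (-0.11 over 13), Wnt targets (0.13 over 15) and the BMP genes (0.20 over 24).

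At day 10 bFGF had been present from day 6, and the labels of that day give its concentration as 20 ug/ml, so the doses cannot be assumed equal. In the same fit 27 genes were called at day 10 (0.137%), 24 of them higher (0.121%) and 3 lower (0.0152%). Of the 52 genes higher at day 17, 50 were above 0 at day 10, where 47.2% of all genes were, and 10 passed there too. These 10 were ADGRL4, DKK2, GNG11, LOX, NT5E, PHLDA1, PHLDA2, TFPI, TM4SF1 and TM4SF18. Of the 57 lower genes, 44 were below 0 at day 10, where 52.8% of all genes were, and none passed. The median log2 change of the 52 genes was 1.55 at day 17 and 0.76 at day 10, and that of the 57 was -1.39 at day 17 and -0.30 at day 10. The day 10 count moved to 6 without the pool term and to between 1 and 7 with an array left out.

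**Figure D4:**
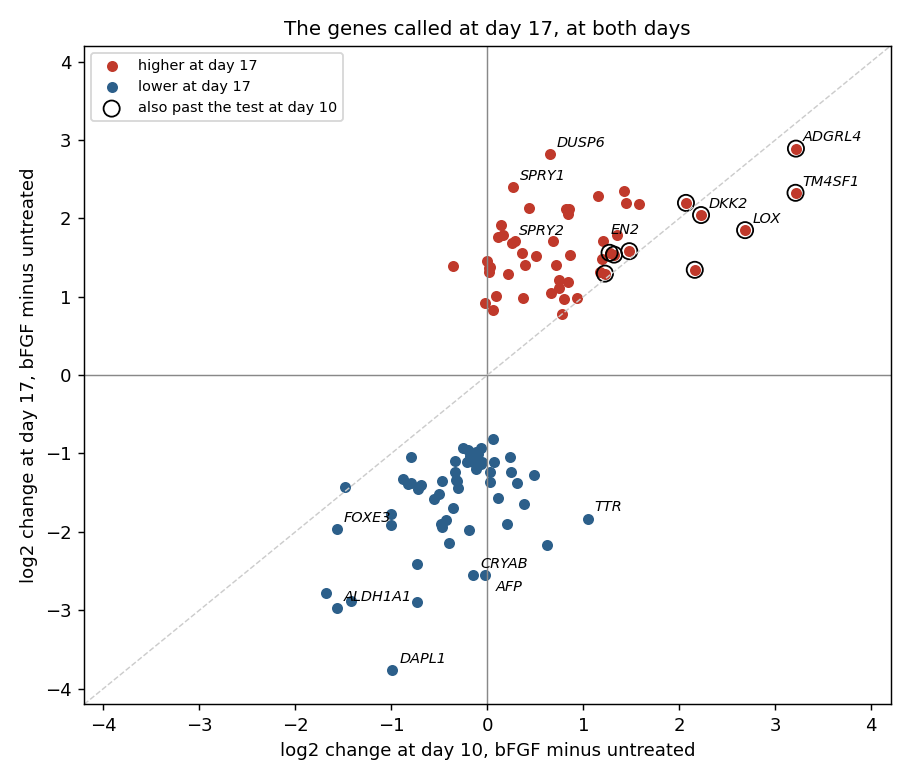
Log2 change (bFGF minus untreated) of the 109 genes called at day 17, at day 10 (horizontal axis) and day 17 (vertical axis), with rings around the 10 also called at day 10 and a dashed line of equal change. DUSP6 and SPRY1 lie far above the line, at 0.65 and 0.26 at day 10, and ADGRL4 lies near it, at 3.21.

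The difference between the day 17 and day 10 effects was tested directly, and limma called 0 of 19775 genes, while 1707 (8.63%) had an unadjusted p under 0.05. The smallest adjusted p was 0.0727, for SPRY1 and TTR. SPRY1 had a log2 change of 2.40 at day 17 and 0.26 at day 10, a difference of 2.14. Its mean signal was 1640.3 with bFGF and 302 without at day 17, and 1118 with bFGF and 919 without at day 10. DUSP6 averaged 3374 with bFGF and 460.2 without at day 17, and 3274 with bFGF and 2038 without at day 10, a difference of effects of 2.17 (adjusted p = 0.119). In both genes the untreated mean was higher at day 10 than at day 17. The test of the difference for SPRY1 passed in 5 of 22 alternatives and that for DUSP6 in 3. TTR, with a log2 change of 1.04 at day 10 (adjusted p = 0.209), had a difference of -2.88 and passed in 5 of 22. AFP averaged 127 with bFGF and 830.0 without at day 17, and 81.4 with bFGF and 96.0 without at day 10, so its day 10 means were both low. CRYAB averaged 54.6 with bFGF and 402 without at day 17, and 84.5 with bFGF and 101 without at day 10. EN2 had a log2 difference of 1.21 at day 10 (adjusted p = 0.0988), with means of 29.7 with bFGF and 3.87 without.

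**Figure D5:**
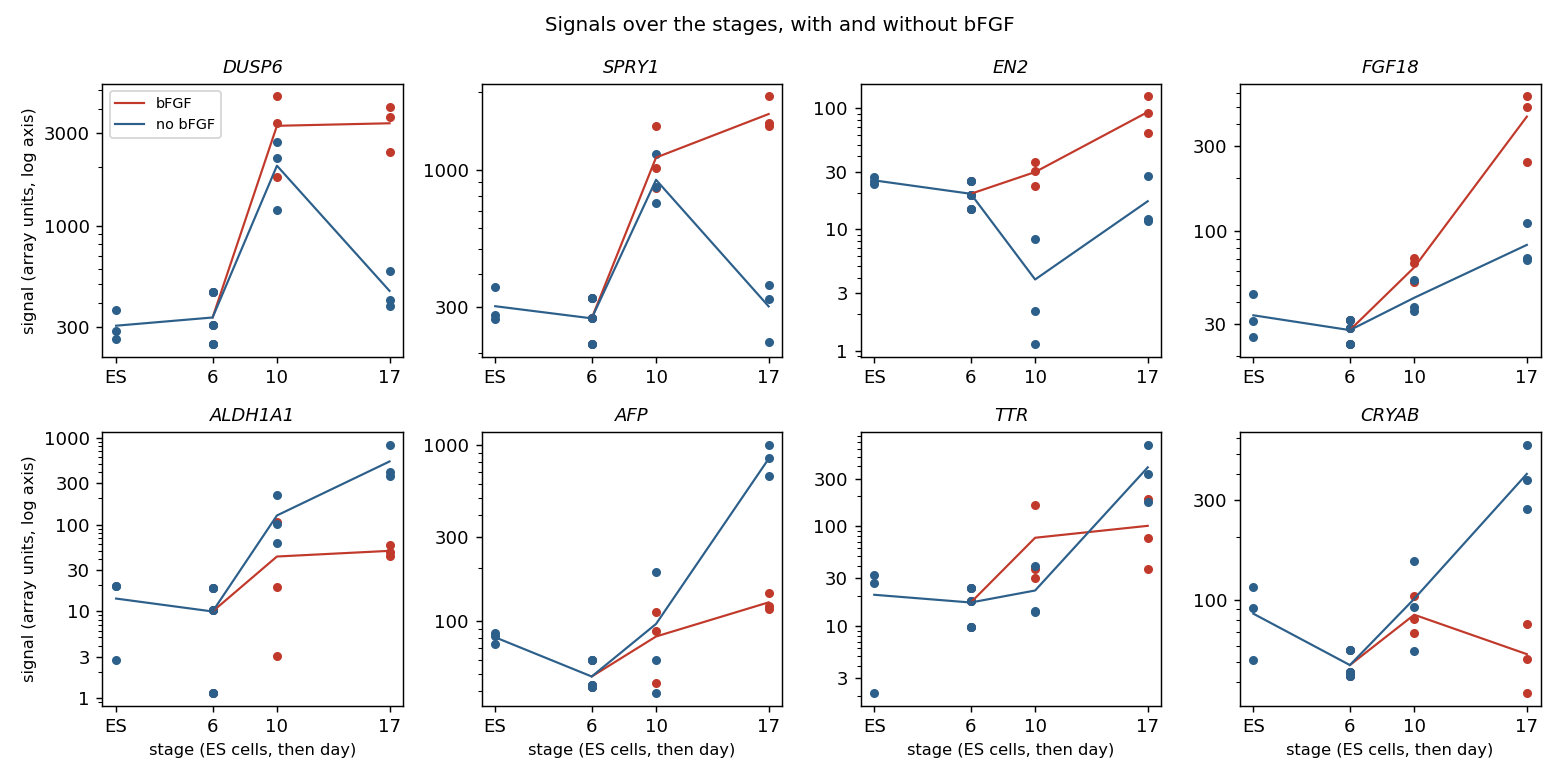
Signals (array units, log axis) of 8 genes in stem cells, day 6 embryoid bodies and neural epithelium of days 10 and 17, with bFGF (red) and without (blue), with points for arrays and lines through group means, both lines starting from the same day 6 arrays. For DUSP6 the untreated mean is 2038 at day 10 and 460.2 at day 17, and for AFP the untreated mean is 96.0 at day 10 and 830.0 at day 17.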

How the data were processed

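Total RNA of 18 pools was measured on human arrays with 54675 probe sets. The authors deposited intensity values on a linear scale, 1 per probe set and array. From the values, each array had been scaled to a 2% trimmed mean of 150.016 to 150.026, and the software was not given in the sources used here. Probe sets were named by GEO's platform annotation: 41097 had 1 gene, 1801 several and 11777 none here. Each of 19775 genes was given 1 probe set, the brightest on average over all 18 arrays, avoiding probe sets named for cross-hybridisation where the gene had another (1 called gene, CDC42EP5, had none). Among the 109 called genes, 72 had several probe sets, and in 20 of these at least 1 moved the other way.

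Values were tested as log2(signal + 16) with limma 3.58.1 in R 4.3.3, with group and pool number as terms, over the 12 neural epithelial arrays (6 residual degrees of freedom) and Benjamini-Hochberg adjustment. Pool numbers came from the titles. A bFGF day 10 array of pool 2 is given as pool 1 in its description, and without it, an alternative chosen after seeing the data, limma called 98 genes at day 17, 91 of them among the 109. Arrays of one number deviated together at day 17 (correlations 0.321 to 0.656), and those of different numbers ran from -0.516 to 0.266. Deviations were taken from means of 3 arrays, which pushes the correlations of different numbers down. Pools 1 and 3 were weakly separated: the pool 1 pair had 0.321, and bFGF pool 3 had 0.266 with untreated pool 1. On simulated data for this comparison with 19775 genes, 38% of genes changed by a log2 value of 1 and 92% of those changed by 2 were recovered. Of the genes called there, 0% and 4.66% were false. The simulated noise was independent and normal, with 1 pool effect shared by all groups, as the fit assumes. These rates need not hold for the real arrays, where the pairing is less certain. Each group has 3 arrays, which limits precision.

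The 37 gene lists, the members and the comparison were chosen with earlier results of these data known. Named genes were the 15 largest changes each way among called genes with 3 pools of the same sign and no overlap, up to 5 members of each list, and DUSP6, SPRY1, EN2 and AFP. Other called genes are also named. Alternatives changed the pool term, arrays, scaling, added constant, filter, variance prior and probe set rule.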

Additional observations from a re-analysis of the deposited data

How the results depend on the processing

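The count of 109 genes at day 17 became 26 without the replicate block, 67 over all 18 arrays without it, 32 with a pseudocount of 1, 245 with 64, 235 in the upper 60% of genes by signal, 265 with a trended and robust prior, and 0 both without pool 2 and with the 6 day 17 arrays alone, and it ran from 31 to 60 with each array left out in turn. It was 141 with a random block, 113 with quantile scaling, 98 without the bFGF day 10 array of conflicting pool number and 84 with the mean of all probe sets. The day 10 count of 27 became 6 without the replicate block, 6 with a pseudocount of 1, 46 in the upper 60%, 69 with the trended prior, 9 with the mean of all probe sets and 5 without pool 2, and ran from 1 to 7 with an array left out. The difference between days, 0 calls, gave 2 with quantile scaling, 14 with a pseudocount of 64, 11 in the upper 60%, 24 with the trended prior and 1 with the mean of all probe sets, and 0 to 1 with an array left out. Over 246 genes and these settings, 6 of 4136 log2 changes reversed, none of a called gene. Each called gene had the same sign in all 3 pools, which many of these settings could not reverse. The reversed changes were ALDH1L1 (-0.12 without pool 2), HOXB2 (-0.20) and OLIG1 (0.041) without untreated day 17 pool 1, RPS6 (0.0062) without untreated pool 3, and FGF3 (-0.089) and HOXC5 (-0.032) without bFGF pool 3. With an array left out, values reached 0.90 for HOXB2, -0.58 for OLIG1, -0.28 for RPS6, 1.16 for FGF3 and 0.98 for HOXC5. The causes were not tested. Signals near the background have the least precision, and the added constant weighs most on them.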
